A study of Rattus norvegicus with 8 samples.

Results

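Cytosolic ribosomal proteins are the protein part of the ribosome that translates nuclear-encoded messages. The members described here were chosen by a rule on gene symbols that uses no measured value. A probe set was taken when the platform's probe-to-gene table gave it exactly 1 symbol and that symbol was Rpl or Rps followed by a number, or Rplp0, Rplp1, Rplp2 or Rpsa. This gave 42 genes, 29 of the large and 13 of the small subunit, out of 14217 genes named by a single symbol. They are read by 48 probe sets out of 31042 that are not controls. Rplp1, Rplp2, Rps27a and Rps4x had no probe set with a symbol of their own and are not analysed here. A further 33 probe sets list a ribosomal protein symbol together with symbols of near-identical copies. They were kept apart from the members and no gene is named from them.

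The samples are frontal cortex RNA from male Sprague-Dawley rats, an outbred strain, weighing about 200 g at the start. Rats were randomised to intraperitoneal olanzapine at 2 mg/kg/day or to saline, 20 animals per group, for 21 days. Olanzapine is an antipsychotic drug that blocks serotonin and dopamine receptors. Arrays were hybridised for 4 animals of each group, with animal numbers 14, 15, 17 and 19 for saline and 9, 14, 18 and 19 for olanzapine, and no allele, transgene or further agent is named. The comparison asks how frontal cortex transcripts differ after repeated dosing.

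A ribosome holds a small subunit, which reads the message, and a large subunit, which joins the amino acids. Each subunit is assembled in the nucleolus from ribosomal RNA and from proteins, most of which are needed in equal numbers. Free ribosomal proteins are rapidly degraded. The messages for these proteins are among the most abundant in most cells. Many begin with a C followed by a run of pyrimidines, called a 5′ terminal oligopyrimidine tract, through which mTORC1 signalling and the binding protein Larp1 adjust their translation. In neurons some of these messages are also carried into dendrites and axons. An array measures message level and not translation, so it does not report on the translational control that acts through this tract.

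Pyrimidine runs lay near the RefSeq start sites of many members, though not always at the annotated base, and windows are printed for genes that recur in the comparison. Promoter sequence from RefSeq, assembly GRCr8, matched 37 of the 42 genes by gene identifier or symbol. Each line gives the 15 bases before and the 15 bases from the annotated start, 5′ to 3′ on the gene's strand, with the longest run of C or T in capitals. For Rpl27a the window is chr1:172974558-172974587 on the plus strand, for Rps23 chr2:23814502-23814531 plus, for Rpl35a chr11:81235007-81235036 minus and for Rpl13a chr1:104748899-104748928 minus. For Rpl23 it is chr10:83272170-83272199 minus, for Rpl14 chr8:129163605-129163634 plus, for Rplp0 chr12:46718376-46718405 minus, for Rps6 chr5:106420526-106420555 minus and for Rpl6 chr12:41011676-41011705 minus.
Rpl27a: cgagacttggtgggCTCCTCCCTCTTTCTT
Rps23: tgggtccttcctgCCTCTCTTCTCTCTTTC
Rpl35a: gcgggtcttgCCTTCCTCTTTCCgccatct
Rpl13a: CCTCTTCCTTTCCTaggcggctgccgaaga
Rpl23: actaaCTTCCTTTCTgactctttccggacg
Rpl14: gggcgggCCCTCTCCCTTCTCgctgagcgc
Rplp0: gaccgcaccgcaCTTCTCTCgccaggcgtc
Rps6: gacgCCTCCTaggcggtcggctgtgtcaag
Rpl6: taTTTTTacatcactagatggcgggtgaaa

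Counted within these windows, the runs are 16 bases long in Rpl27a, 17 in Rps23 and 13 in Rpl35a. They are 14 in Rpl13a and Rpl14, 10 in Rpl23 and 8 in Rplp0, but 6 in Rps6 and 5 in Rpl6. The runs of Rpl27a, Rps23 and Rpl13a reach the edge of the window and may be longer. A run of at least 8 bases that are each C or T lay within the 30-base window in 24 of the 37 genes (64.9%), against 2098 of 18999 protein-coding genes in the table (11.0%). The median longest run was 9 bases in the members and 4 in all genes. On the opposite strand the same search, for runs of A or G, gave 1 of 37 members (2.70%) and 12.2% of all genes. The stricter pattern, a C at the annotated start followed by 4 pyrimidines, was found in 12 members (32.4%) and in 2.44% of all genes. Of the printed windows Rpl35a, Rpl14 and Rplp0 have it. In Rpl13a the run ends just upstream of the annotated start, so the strict count depends on where the annotation places the start. The motif CCGGAAG, which resembles the core of binding sites for ETS family factors, was searched on both strands of the 300-base promoters. It was present in 8 of 37 members (21.6%) and in 11.2% of all genes. These matches are descriptions of sequence and of no measured binding.

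**Figure D1:**
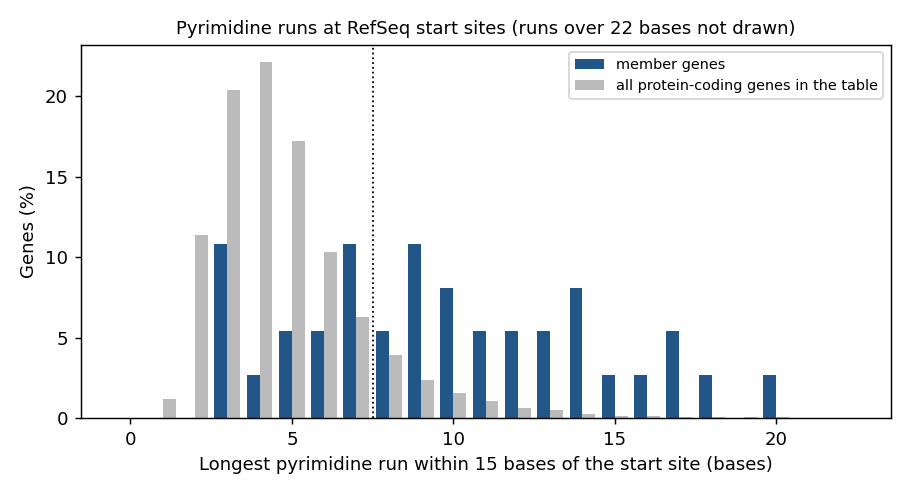
Share of genes, in percent, by the longest run of C or T within 15 bases on either side of the RefSeq start site, for the 37 member genes with an entry and for all 18999 protein-coding genes in the table. The dotted line marks the limit of 8 bases, reached by 64.9% of members and 11.0% of all genes.

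The measured values are deposited array intensities, which are linear and have no unit. They were compared as log2(intensity + 63.4), so that fold changes of dim probe sets are understated, and probe sets in the dimmest 40% by mean were not tested. Of the 48 member probe sets 45 passed this filter, which stand for 41 genes, and only Rpl28 was lost altogether. The members were bright, with a median brightness percentile of 91.8 among the 18625 tested probe sets, and 12 of the 45 (26.7%) lay in the brightest 5%. The numbers in the sample labels were read as animal numbers. Adjusted p-values measure the spread between these arrays, which holds animal and technical variation together, and the number of arrays limits the precision.

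Median intensity per array ran from 159 to 191. Among bright probe sets the arrays were unlike: 98th percentiles were 6174 to 6287 for saline 14, 15 and 17, against 5474 to 5735 for the 4 olanzapine arrays together with saline 19. For the top 5% by brightness the olanzapine minus saline difference had a median of -0.155 (log2) as deposited, and of 0.00 after quantile normalization, which gives all arrays the same distribution. Neuron markers (6 of 7 tested, Snap25 and Rbfox3 included) had mean log2 levels of 12.02 to 12.35 in saline and 12.05 to 12.17 in olanzapine. Astrocyte markers were at 11.23 to 11.32 and 10.92 to 11.27, oligodendrocyte markers at 9.86 to 10.63 and 10.14 to 10.78, and microglial markers at 8.19 to 8.44 and 8.25 to 8.68. Endothelial markers were at 9.38 to 9.58 and 9.46 to 9.67 and blood markers at 9.32 to 10.32 and 9.21 to 10.08. Meningeal markers, 6 of 6 tested, had levels of 8.35 to 8.46 (saline) and 8.78 to 9.70 (olanzapine), with no overlap between groups. Their part in the member differences was not tested, and in tissue RNA fewer cells of a type and less RNA per cell cannot be told apart. RNA integrity, read as the log2 gap between the 3′ and 5′ probe sets for Gapdh, was 2.30 ± 0.17 in saline and 2.17 ± 0.28 in olanzapine (SD, n = 4 each, two-sided exact permutation p = 0.486). The same gap for beta-actin was 2.85 ± 0.42 and 2.87 ± 0.22 (exact permutation p = 0.943). On every array the 3′ probe set was the brighter, by 1.81 to 2.52 for Gapdh and 2.35 to 3.32 for beta-actin. These tests compare the groups and do not show that the RNA was intact. The mean log2 level of the spike-in control probe sets was 12.74 ± 0.24 in saline and 12.14 ± 0.32 in olanzapine, a difference of -0.60 (exact permutation p = 0.0571), and its part in the member differences was not tested. The smallest p that 4 against 4 arrays can give is 0.0286.

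No ribosomal protein probe set passed the test of olanzapine against saline. By limma with Benjamini-Hochberg adjustment, 0 of 45 member probe sets reached an adjusted p of 0.05, beside 0.00% of all 18625. The smallest adjusted p among the members was 0.403, for Rpl27a and Rps29. With saline 19 left out 0 members passed, beside 0.515% of all tested probe sets lower and 0.0591% higher, and with olanzapine 9 left out 0 members passed, beside 0.00537% higher. The differences ran from -0.61 to 0.33 on the log2 scale, and their median was -0.060, against 0.027 for all tested probe sets. As deposited, 29 members (64.4%) were lower and 16 higher in olanzapine, where 44.0% of all tested probe sets were lower. At an unadjusted limma p under 0.05 there were 7 lower members (15.6%) and 1 higher (2.22%). The share of all tested probe sets was 3.73% lower and 4.59% higher. Within the brightest 5%, 5 of 12 members (41.7%) were lower at this limit, beside 38.4% of all probe sets there. Between the 80th and 95th brightness percentiles it was 1 of 21 members (4.76%), beside 5.05%. Below the 50th percentile it was 1 of 4 members, Rpl14, beside 1.05%.

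The share of lower values differed with brightness, in the members and in all tested probe sets. Among the 12 members in the brightest 5%, 11 were lower, with a median of -0.103. All 932 probe sets of that class had a median of -0.155, with 88.7% lower. Between the 80th and 95th brightness percentiles 12 of 21 members were lower (57.1%), beside 55.7% of all probe sets there. The medians were -0.037 and -0.021. Between the 50th and 80th percentiles 4 of 8 members were lower, beside 41.6% of all probe sets there. The medians were -0.063 and 0.033, and after quantile normalization they were -0.088 and -0.004. Below the 50th percentile 2 of 4 members were lower, beside 37.5% of all probe sets there. Of the 33 members outside the brightest 5%, 18 were lower (54.5%), beside 41.7% of all tested probe sets outside it. The medians were -0.037 and 0.038. These shares are not matched for brightness, as the median brightness percentile was 87.8 in the 33 members and 47.5 in all those probe sets. After quantile normalization the median over all members was -0.002, and 23 were lower and 22 higher. After cyclic loess, which fits the curvature between pairs of arrays, the median was 0.002. Without saline 19 the deposited median was -0.027 and without saline 17 it was -0.034.

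**Figure D2:**
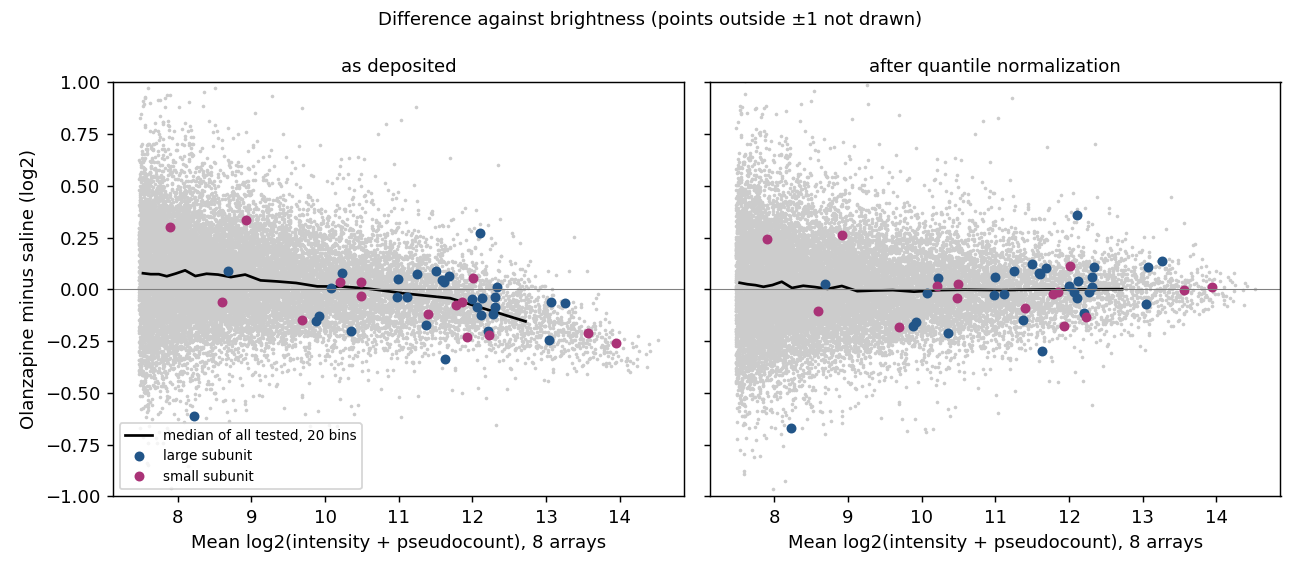
Difference between groups (olanzapine minus saline, log2 scale) against mean log2 intensity over 8 arrays for all tested probe sets (grey), large subunit members (blue) and small subunit members (purple), as deposited and after quantile normalization. The black line, the median of all tested probe sets in 20 bins, bends below 0 at high brightness as deposited and stays near 0 after normalization, and the member median goes from -0.060 to -0.002.

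By subunit, on 1 probe set per gene, 18 of 28 large subunit genes were lower (64.3%), beside 44.0% of all tested probe sets. Of the small subunit genes 10 of 13 were lower (76.9%). The medians were -0.044 for the large and -0.074 for the small subunit. After quantile normalization the medians were 0.015 and -0.023. The 32 tested probe sets that carry several symbols, at least 1 of them a ribosomal protein, had a median of -0.078 as deposited and -0.025 after quantile normalization, with 22 of 32 lower. They are a separate set of probes for much the same protein family.

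**Figure D3:**
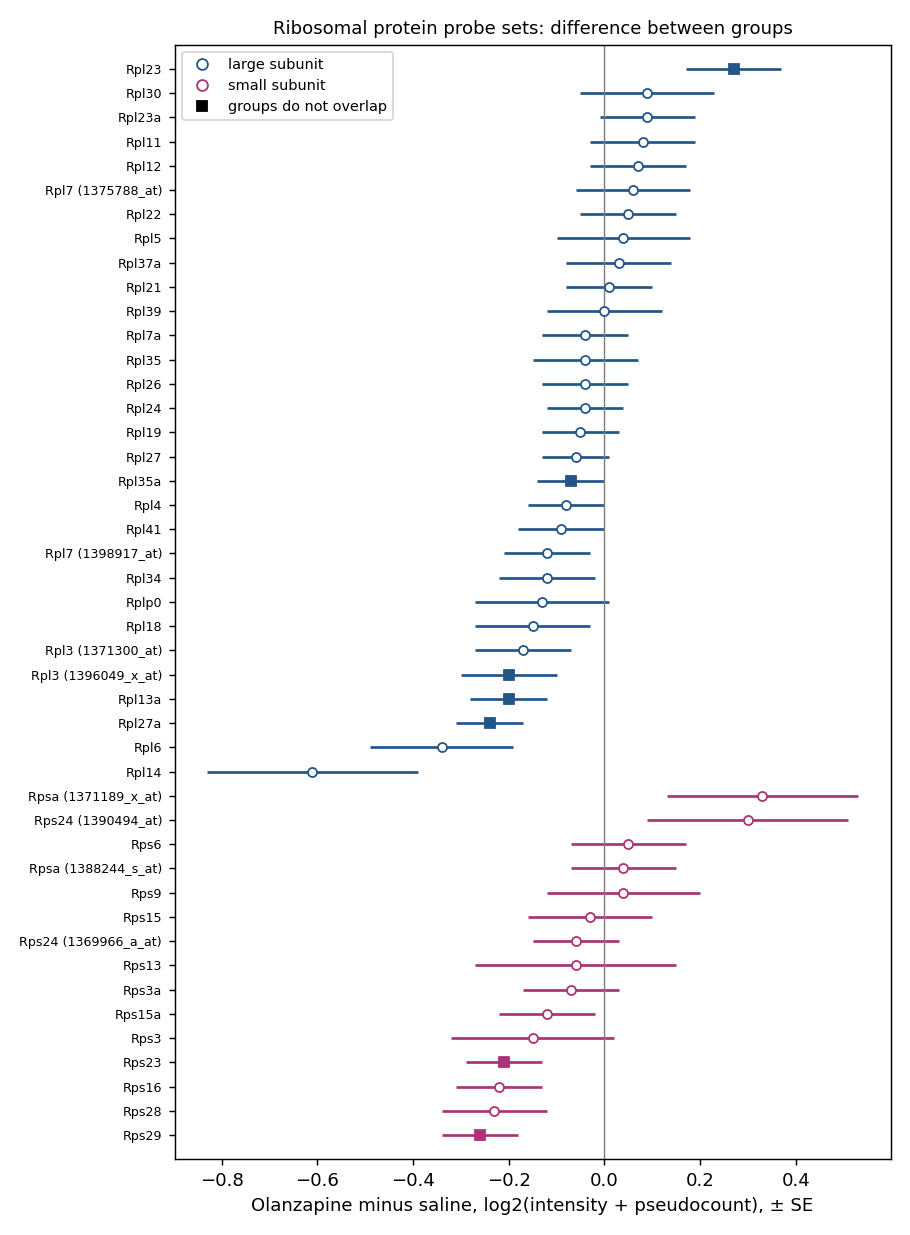
Difference between groups (olanzapine minus saline, log2(intensity + 63.4)) with its standard error from limma for the 45 tested member probe sets, blue for the large and purple for the small subunit. Filled squares mark the 7 probe sets whose groups do not overlap, and genes with several probe sets carry the probe set name.

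In 6 member probe sets (13.3%) all olanzapine values lay below all saline values, beside 2.07% of all tested probe sets, and in 1 member (2.22%) they lay above, beside 2.40%. Of these 6, 5 were among the 12 members in the brightest 5% (41.7%), where 18.6% of all probe sets had this pattern. After quantile normalization 0 of those 12 were separated, beside 40 of all 932 probe sets of that class downward and 29 upward. After quantile normalization 2 members, Rpl14 and a probe set of Rpl3, were separated downward, beside 1.76% of all probe sets, and 1, Rpl23, upward, beside 1.97%.

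Rps29, a small zinc-binding protein of the small subunit close to the message, had intensities of 18407, 18391, 16605 and 15618 in saline 14, 15, 17 and 19. In olanzapine 9, 14, 18 and 19 they were 15082, 12829, 14731 and 14932. The groups did not overlap, with saline 19 the lowest saline array and olanzapine 14 apart from the other olanzapine arrays. Rps29 differed by -0.26 (SE 0.08, limma adjusted p = 0.403) as deposited and by 0.01 after quantile normalization.

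Rps23, which lies at the decoding centre, was at 12137, 14421, 13357 and 12164 in the saline arrays, in the same order of animal numbers. It was at 11154, 10431, 11665 and 11576 in the olanzapine arrays. Saline 15 was the highest array, and 11665 in olanzapine 18 lay just under the lowest saline value. The difference of -0.21 (SE 0.08, limma adjusted p = 0.50) was -0.00 after quantile normalization.

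Rpl27a is a large subunit protein whose gene has a pyrimidine run of at least 16 bases at its start site. It was at 8736, 9621, 8759 and 9372 in saline and at 7440, 7375, 8116 and 7857 in olanzapine. Every olanzapine array was below every saline array. Its difference was -0.24 (SE 0.07), the smallest limma adjusted p together with Rps29, and -0.07 after quantile normalization. Left-out arrays moved it only between -0.27 and -0.22.

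Rpl13a, a large subunit gene often used as a reference gene in quantitative PCR, was at 5014, 5363, 4900 and 4795 in saline. In olanzapine it was at 4598, 4315, 4620 and 3915, with olanzapine 19 the lowest. Its difference was -0.20 (SE 0.08, limma adjusted p = 0.539) as deposited and -0.12 after quantile normalization. Rpl35a, a gene mutated in some patients with Diamond-Blackfan anaemia, was separated by a narrower margin. It was at 10140, 9867, 10168 and 9798 in saline and at 9408, 9292, 9655 and 9778 in olanzapine, so that olanzapine 19 lay just under saline 19. Its difference of -0.07 (SE 0.07) turned to 0.14 after quantile normalization and to 0.095 after cyclic loess.

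Rpl23, a large subunit protein that can bind Mdm2, the ubiquitin ligase of p53, was the member with the opposite pattern. It was at 3728, 3352, 4350 and 4407 in saline and at 4768, 4897, 4785 and 4628 in olanzapine. Saline 14 and 15 were low and the olanzapine arrays lay close together, with an SD of 110 beside 508 in saline. The difference was 0.27 (SE 0.10, limma adjusted p = 0.480) as deposited and 0.36 after quantile normalization, and the groups did not overlap on either scale. Without saline 15 it was 0.20 and without saline 19 it was 0.33.

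**Figure D4:**
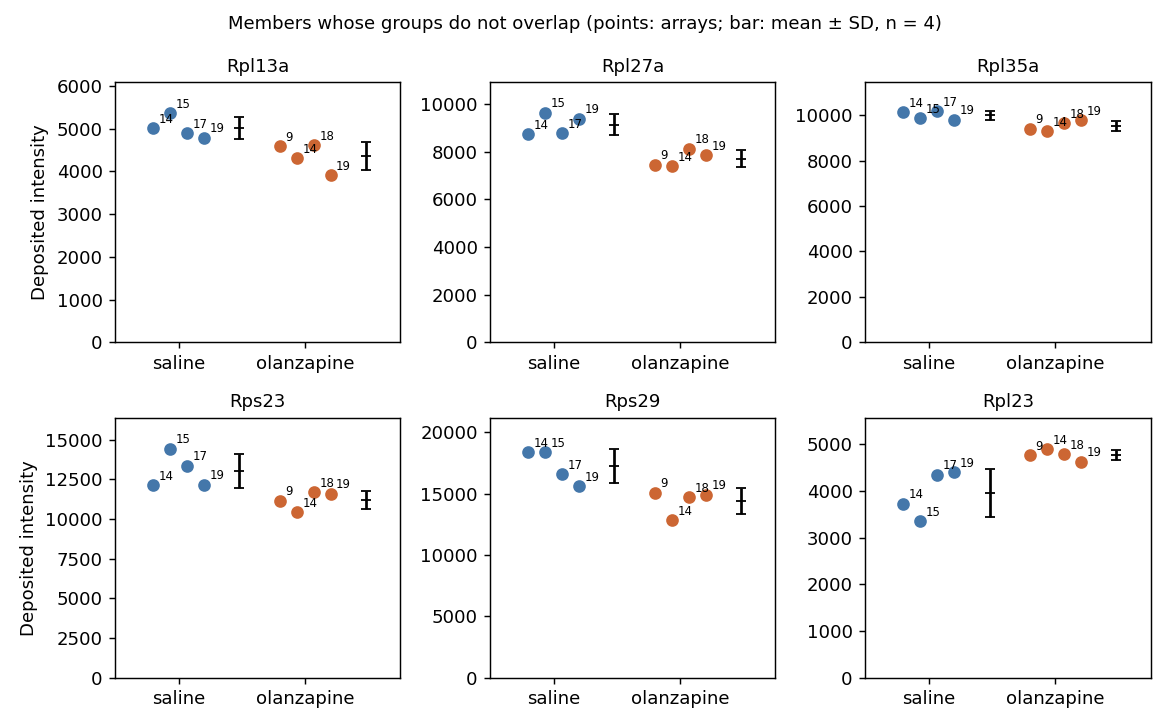
Deposited intensity of 6 members whose groups do not overlap, by group, each point an array labelled with its animal number and the bar the mean ± SD (n = 4). In Rpl13a, Rpl27a, Rpl35a, Rps23 and Rps29 all olanzapine arrays lie below all saline arrays, and in Rpl23 they lie above.

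Rpl3, a large subunit protein, has 2 probe sets. The dimmer one, with an x in its name to mark possible cross-hybridisation, was at 1314, 1477, 1350 and 1225 in saline and 1221, 1095, 1108 and 1202 in olanzapine. Its groups were separated by a narrow margin as deposited, and were also separated after quantile normalization. The brighter one was at 2727, 3357, 2480 and 2524 in saline and 2360, 2481, 2570 and 2340 in olanzapine, which overlap. Their differences, -0.20 (SE 0.10) and -0.17 (SE 0.10), were alike in sign and size.

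Among the other lower members, Rps16, a small subunit protein, was at 4621, 5880, 5153 and 4927 in saline and 4332, 4492, 4623 and 4123 in olanzapine. Olanzapine 18 alone reached above the lowest saline array, and only just. It differed by -0.22 (SE 0.09, limma adjusted p = 0.526), by -0.13 after quantile normalization and by -0.16 without saline 15. Rpl6, of the large subunit, was at 3738, 4181, 2681 and 3576 in saline and 3263, 3313, 2380 and 2245 in olanzapine. Its SD over the 8 log2 values, 0.31, was the largest among the members above the 80th brightness percentile. The groups overlapped through saline 17, and the difference of -0.34 (SE 0.15, limma adjusted p = 0.555) was -0.46 without that array. Rps28, a small subunit protein, was at 4370, 4129, 3592 and 4594 in saline and 4079, 3524, 3797 and 2838 in olanzapine, and differed by -0.23 (SE 0.11).

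The largest difference belonged to a dim probe set. Rpl14, of the large subunit, was at 265, 308, 317 and 335 in saline and at 274, 203, 88.5 and 185 in olanzapine on the tested probe set. The groups overlapped only through olanzapine 9 and saline 14, and olanzapine 18 was far below the rest. The difference was -0.61 (SE 0.22, limma adjusted p = 0.487), or -0.39 without olanzapine 18. A second Rpl14 probe set, too dim to be tested, was at 42.0, 115, 41.5 and 54.3 in saline and at 174, 144, 144 and 201 in olanzapine. There every olanzapine array was above every saline array, so the probe sets of this gene pointed in opposite directions.

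Probe sets of a gene also gave unlike values elsewhere, and whether they differ beyond their standard errors was not tested. Rpl7, of the large subunit, differed by -0.12 (SE 0.09) on the brighter and 0.06 (SE 0.12) on the dimmer probe set. Rps24, whose message is alternatively spliced, differed by -0.06 (SE 0.09) at a mean intensity of 3727 in saline and by 0.30 (SE 0.21) on a probe set at 156. Rpsa, a small subunit protein also known as the laminin receptor precursor, differed by 0.04 (SE 0.11) on its brightest probe set and by 0.33 (SE 0.20) on a dimmer one marked x. Its dimmest probe set was not tested and ran from 17.5 in olanzapine 19 to 179 in olanzapine 18. Rpl28, whose only probe set was too dim, was at 112, 164, 70.7 and 49.4 in saline and 25.2, 107, 21.9 and 75.3 in olanzapine. Ribosomal protein genes have many processed pseudogenes, and short probes cannot always tell copies apart, so each value is uncertain to that extent.

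The proteins and RNA of the 5S particle join the ribosome together. Rpl5 and Rpl11 bind 5S ribosomal RNA and, when not assembled, Mdm2. Rpl5 was at 2649, 2389, 3455 and 3579 in saline and 2486, 3088, 3259 and 3550 in olanzapine. Rpl11 was at 1191, 1080, 1027 and 1120 in saline and 1189, 1215, 1270 and 1015 in olanzapine. Both genes overlapped between the groups, with differences of 0.04 (SE 0.14) and 0.08 (SE 0.11). A control probe set for 5S ribosomal RNA was at 162, 110, 158 and 172 in saline and 177, 170, 137 and 157 in olanzapine. On the log2 scale it was 7.73 ± 0.20 and 7.80 ± 0.12 (SD, n = 4 each, two-sided exact permutation p = 0.657). These readings were dim, near or below the median intensities of the arrays (159 to 191). Whether this probe set follows the level of 5S ribosomal RNA was not tested.

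Members of special interest for signalling or structure did not separate either. Rps6, the substrate of S6 kinase whose phosphorylation is used to read mTORC1 activity, was at 4183, 3039, 4744 and 4200 in saline and 4161, 4208, 4340 and 3871 in olanzapine. Saline 15 was the low array, and the difference of 0.05 (SE 0.12) was -0.076 without it. Rplp0, the base of the stalk that recruits elongation factors, was at 806, 1052, 951 and 1023 in saline and 1017, 800, 1022 and 674 in olanzapine. It differed by -0.13 (SE 0.14), and by -0.018 without olanzapine 19. Rps3, at the channel where the message enters, was at 756, 864, 799 and 820 in saline and 822, 781, 938 and 449 in olanzapine. Its difference of -0.15 (SE 0.17) rested on olanzapine 19 and was 0.058 without that array. Rpl22, an RNA-binding member, was at 1951, 1989, 2031 and 1807 in saline and 1831, 2011, 2344 and 1912 in olanzapine and differed by 0.05 (SE 0.10).

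The remaining members on the higher side lay close to 0. Rpl12, at the base of the stalk, differed by 0.07 (SE 0.10), Rpl23a, near the exit of the peptide tunnel, by 0.09 (SE 0.10), and Rpl30 by 0.09 (SE 0.14). Rps13, of the small subunit, had an SD of 0.34 over the 8 arrays, among the 3 largest of the tested probe sets, from 185 in olanzapine 14 to 445 in saline 17, and a difference of -0.06 (SE 0.21). The tested members not described here were Rpl18, Rpl19, Rpl21, Rpl24, Rpl26, Rpl27, Rpl34, Rpl35, Rpl37a, Rpl39, Rpl4, Rpl41, Rpl7a, Rps15, Rps15a, Rps3a and Rps9. Their differences ran from -0.15 in Rpl18 to 0.04 in Rps9.

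Covariation of the members across arrays was weak, above that of all tested probe sets and, as deposited, below that of the brightest 5%. After the group means were removed, the mean pairwise correlation over the 8 arrays was 0.092 among the 41 genes, beside 0.283 among the brightest 5% and 0.005 among all tested probe sets. After quantile normalization it was 0.202 among the members, -0.00 among the brightest 5% and 0.00 among all, values that share the arrays and their preparation. That step gives all arrays the same distribution. It thereby holds the brightest class and the whole near 0, so their values are no yardstick for the members. The median deviation of the 41 genes from their own 8-array means ran from -0.066 in olanzapine 19 to 0.092 in saline 19 as deposited. After quantile normalization it ran from -0.064 in saline 14 to 0.110 in saline 19. Olanzapine 19 was the lowest of the 8 arrays for 10 of the 41 genes (24.4%), beside 10.8% of all tested probe sets, and the highest for 0. It also had the smallest Gapdh 3′ to 5′ gap, 1.81 on the log2 scale, where the other arrays had 2.12 to 2.52, while its beta-actin gap of 2.57 lay above that of saline 17, the lowest at 2.35. The part of RNA integrity in the member values was not tested.

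Saline 15 was high for some members and low for others. It was the highest of the 8 arrays for 12 of 41 genes (29.3%), beside 16.7% of all tested probe sets, and the lowest for 8 (19.5%), beside 20.9%. Relative to the mean of the other saline arrays it was lower by over 0.2 in 8 genes, with Rps6 at -0.51, Rpl5 at -0.41, Rps9 at -0.40 and Rpl7 at -0.32. It was higher by over 0.2 in 5 genes, with Rpl37a at 0.41, Rpl3 at 0.37 and Rpl6 at 0.34. These are 19.5% of the members lower and 12.2% higher, where 29.0% and 26.0% of all tested probe sets passed the same limit. Both subunits were present on each side, with Rps16 at 0.26 on the high side. The same array had the largest Gapdh 3′ to 5′ gap, 2.52, while its beta-actin gap of 3.05 lay below those of saline 19 and olanzapine 14. Within groups the saline SD was larger than the olanzapine SD in 25 of 41 genes (61.0%), beside 63.6% of all tested probe sets, a share close to that of the members.

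**Figure D5:**
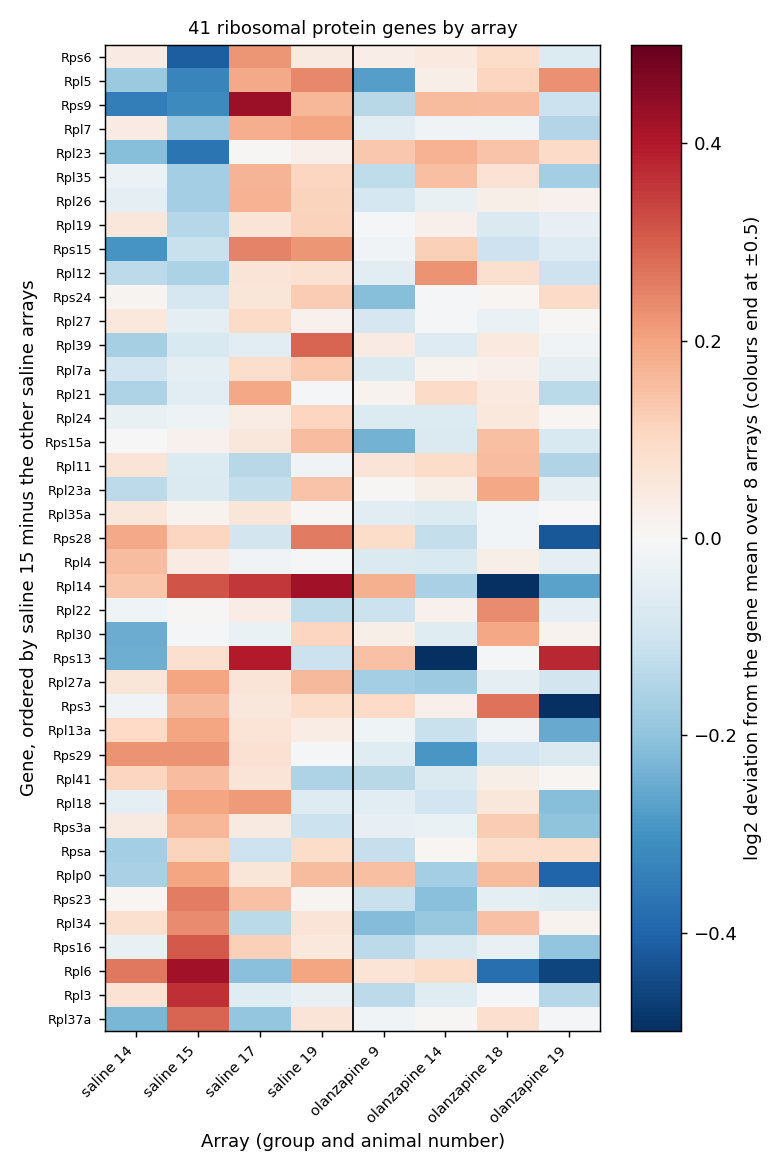
Log2 deviation of each of 41 ribosomal protein genes (rows, 1 probe set per gene) from its own mean over the 8 arrays (columns, saline left of the line), red above and blue below, with genes ordered by how far saline 15 lay from the other saline arrays. Saline 15 is blue for Rps6, Rpl5 and Rps9 and red for Rpl6, Rpl3 and Rpl37a, and olanzapine 19 is deep blue for Rps3, Rplp0, Rps28 and Rpl6.

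Genes that work with the ribosome were read from lists on the same fit, and none of them had a member past the adjusted test. Of 16 genes for elongation factors and other messages with pyrimidine tracts, 13 were lower (81.2%), beside 44.0% of all tested probe sets. The median of these genes was -0.075, and -0.039 after quantile normalization. They were bright, with a median brightness percentile of 90.1. Eef1a1, the main elongation factor that delivers transfer RNA, was at 7896, 7127, 7201 and 7234 in saline and 6391, 5919, 6154 and 6919 in olanzapine, with no overlap. It differed by -0.21 (SE 0.08, limma adjusted p = 0.50), and by -0.08 after quantile normalization. Hnrnpa1, an RNA-binding protein, differed by -0.31 (SE 0.08) and by -0.05, and the helicase gene Eif4a2 by -0.15 (SE 0.08) and -0.03. Like the brightest members, these were nearer 0 on the normalized scale.

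Of 24 initiation factor genes, with a median of -0.029, 14 were lower (58.3%), beside 44.0% of all tested probe sets. Eif1ax differed by -0.21 (SE 0.08), or by -0.01 after quantile normalization, Eif2b4 by 0.29 (SE 0.17) and Eif5b by 0.33 (SE 0.20). Genes for ribosome assembly and ribosomal RNA synthesis had 30 of 49 higher and 19 lower (38.8%), beside 44.0% lower among all tested probe sets. Their median was 0.019 as deposited and -0.026 after quantile normalization. Gar1, of the particle that makes pseudouridine in ribosomal RNA, differed by 0.27 (SE 0.13), Polr1b, a subunit of RNA polymerase I, by 0.47 (SE 0.26) and Utp18 by -0.19 (SE 0.10).

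Genes of mTORC1 and S6 kinase signalling had a median of 0.053. Of these 25, 14 were higher and 11 lower (44.0%), the same share as the 44.0% of all tested probe sets. Larp1, the protein that binds pyrimidine tracts, was at 1039, 896, 927 and 1261 in saline and 1232, 1336, 1051 and 1366 in olanzapine, and differed by 0.26 (SE 0.13, limma adjusted p = 0.617). Saline 19 lay within the olanzapine values and the groups overlapped. Rraga, a small GTPase that brings mTORC1 to lysosomes, differed by -0.29 (SE 0.08) as deposited and -0.07 after quantile normalization. Pdcd4, an inhibitor of translation initiation, differed by -0.16 (SE 0.08) and by 0.08 after normalization.

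Mitochondrial ribosomal proteins, which belong to a different ribosome, had 41 of 71 genes lower (57.7%), beside 44.0% of all tested probe sets. Their median was -0.066, and -0.079 after quantile normalization. Mrpl15 differed by -0.42 (SE 0.17), Mrpl3 by -0.31 (SE 0.13) and Mrps17 by 0.31 (SE 0.12). Of the paralogs and associated genes that the symbol rule leaves out, 6 were on the array and 3 were tested. Rps27l, a paralog of Rps27 and a known p53 target, was at 418, 465, 485 and 469 in saline and at 663, 759, 665 and 506 in olanzapine. All olanzapine arrays were above all saline arrays, with olanzapine 19 nearest to them. It differed by 0.43 (SE 0.14, limma adjusted p = 0.409) as deposited and by 0.38 after quantile normalization. Rack1, a scaffold on the small subunit, differed by 0.10 (SE 0.09) and Rpl7l1 by -0.04 (SE 0.10).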

How the data were processed

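The authors deposited linear probe set intensities for 31099 probe sets on 8 arrays, 57 of them controls. The 2% trimmed means were 500.1 to 500.2 on every array, so each had been scaled. The scanner software behind these intensities is not given in the sources used here. Symbols came from the platform table of 20826 probe sets with 1 symbol. 40 of the 42 member genes matched the GRCr8 RefSeq table by Entrez identifier.

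Values were converted to log2(intensity + 63.4), the 25th percentile of all values, and 18625 probe sets above the 40th percentile by mean were tested with limma 3.58.1 under R 4.3.3 (lmFit, eBayes with trend, no covariate, two-sided, Benjamini-Hochberg over all of them). The fit was tested on simulated data. For counts by gene the probe set with the highest mean was used. The members and lists were chosen with earlier results of these data known. Named members were a fixed list, the 6 with the smallest p in each direction, the 3 with the largest SD, those without overlap (on the probe set used for the gene) and those whose probe sets differ in sign, plus 3 genes of each list. Rps28, Rpl3, Rpl5, 5S RNA, Rpl28 and the genes named from saline 15 were added after their values were seen. Normalization, pseudocount, filter, array weights, moderation, probe set choice, a replicate block and left-out arrays were varied.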

Additional observations from a re-analysis of the deposited data

Results flagged for a closer look

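Rps29 in olanzapine 14, at 13.65 on the log2 scale, stood apart from the other olanzapine arrays at 13.85 to 13.89. In groups of 4 chance gives such a gap in about 1 in 20 groups. The dimmer Rpl14 probe set, which was not tested, differed by 0.89 on the log2 scale, with every olanzapine array (7.70 or more) above every saline array (7.48 or less).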

How the results depend on the processing

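No member probe set passed in any alternative, including the fit without saline 19, where 107 other probe sets passed. The member median of -0.060 was -0.002 after quantile normalization and 0.002 after cyclic loess, and stayed between -0.112 and -0.047 in the other alternatives that kept all arrays. With 1 array left out it ran from -0.075 to -0.027. Members lower in olanzapine numbered 22 to 36 across alternatives with all arrays and 27 to 35 with 1 left out. Of the 21 named members, the sign turned in Rpl35a (0.14) and Rps29 (0.013) after quantile normalization, in Rpl35a (0.095) and Rps24 (0.013) after cyclic loess, and in Rpl22 (-0.00035) and Rpsa (-0.016) after median centring. The cause was not tested. With the replicate block, which rests on animal numbers 14 and 19 only, the median was -0.064, and Rpl11 (-0.053), Rpl23a (-0.017), Rps13 (0.046) and Rps6 (-0.054) changed sign. Deviations of equally numbered animals correlated at 0.07 and 0.11, with only 2 pairs, so the number was not taken to pair animals. With 1 array left out Rpsa ran from -0.015 to 0.081, Rps6 from -0.076 to 0.13, Rps13 from -0.20 to 0.14, Rps24 from -0.10 to 0.0019, Rpl22 from -0.019 to 0.096 and Rps3 from -0.26 to 0.058.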
